A study of Homo sapiens with 6 samples.

Results

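IFITM1, IFITM2, IFITM3 and IFITM10 encode interferon-induced transmembrane proteins and a relative of them. They were taken as the 4 of 60617 genes in the deposited count table whose Ensembl identifier carries one of these symbols. The rule itself used symbols and no values, but the members were chosen with earlier results of these data known. RNA of IFITM1, IFITM2 and IFITM3 was far higher in A549 cells with a knockout of YTHDF1 than in wild-type A549 cells, from a summed 19.6 ± 0.947 to 386 ± 14.7 CPM (the count scaled to the library total, mean ± SD, n = 3 libraries per group). IFITM10 RNA was low in every library and lower in the knockout cells, at 1.83 ± 0.0638 against 0.887 ± 0.338 CPM.

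IFITM proteins are small membrane proteins that restrict the entry of many enveloped viruses by acting on membrane fusion. IFITM1 sits largely at the cell surface, while IFITM2 and IFITM3 are drawn by a tyrosine-based signal near their start into endosomes and lysosomes, where many viruses fuse. Type I, II and III interferons raise transcription of IFITM1, IFITM2 and IFITM3 through STAT and IRF factors that bind DNA elements near the genes. IFITM10 belongs to the same CD225 family and is the least studied of these genes.

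A549 is a human lung cancer line used widely in work on respiratory viruses. The series compared wild-type A549 cells (3 libraries, with no treatment named) with A549 cells carrying a YTHDF1 knockout (3 libraries), and its title links YTHDF1, a reader of N6-methyladenosine in mRNA, to R-loops and innate immunity. The edited part of YTHDF1 and whether the knockout cells were 1 clone go unnamed in the sources used here. The labels name the libraries biological replicates without naming separate clones or cultures, so the p-values measure only the spread among these libraries, which may be partly technical.

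Library totals ranged from 27238817 to 40675628 counts, and 3 counts in a library equalled 0.0735 to 0.111 CPM. YTHDF1 RNA itself was lower in the knockout libraries, by 1.05 on the log2 scale, and was present in all of them. All 9 epithelial and metabolic markers of A549 that were looked up passed the filter on low counts, and CDKN2A and CDKN2B, deleted in this line, had 0 counts in all 6 libraries. Mitochondrially encoded mRNA took 5.76% to 5.92% of counts in wild-type and 3.72% to 3.98% in knockout libraries. Of 5 leukocyte markers, CD3E was at 0 and the list summed to 11.1 to 11.5 CPM in wild-type and 3.05 to 4.09 CPM in knockout libraries, nearly all of it CD14. Of 5 fibroblast markers, COL1A2 was under 0.1 CPM in both group means and the list summed to 30.1 to 35.1 and 43.7 to 46.8 CPM, mostly COL1A1. Of 4 endothelial markers, none passed the filter, and they summed to 0.528 to 1.07 and 0.343 to 0.464 CPM. The part of these shifts in the results was not tested. In bulk RNA, fewer cells that make a transcript and less transcript per cell cannot be told apart.

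All 4 IFITM genes passed the filter, and all 4 had an adjusted p under 0.05 in the test of knockout against wild type, 3 higher and 1 lower. That share has to be read against a background in which 53.5% of the 18505 genes tested were called, 27.2% higher and 26.3% lower. The groups did not overlap for any of the 4 genes, which was also true of 58.9% of all genes tested. What set IFITM1, IFITM2 and IFITM3 apart from most called genes was size: ordered by log2 fold change from the highest, they ranked 8, 303 and 100 of 18505.

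IFITM1, the cell-surface member, was almost without counts in wild-type cells. It had 0, 0 and 3 counts in the wild-type libraries and 3729, 4710 and 4246 counts in the knockout libraries, or 115, 115 and 104 CPM. The groups were wholly separate, and the 3 wild-type counts all came from wild-type replicate 3. The ratio of knockout to wild type was 3898, with an exact 95% counting interval from 1333 to 18902, and the adjusted p was 2.01e-33 by edgeR's quasi-likelihood test. With wild-type replicate 3 left out, the wild-type group had no counts and IFITM1 was at least 2410-fold higher, taking 3 counts over the group as a floor. Intervals and floors here cover counting error only.

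IFITM2 was the member with the most RNA in wild-type cells. Wild-type libraries had 589, 410 and 593 counts, or 15.5, 15.2 and 14.8 CPM, and knockout libraries had 3484, 4348 and 4424 counts, or 108, 107 and 109 CPM. Libraries within a group lay close together and the groups lay far apart. The rise was 2.83 on the log2 scale (SE 0.0599, edgeR adjusted p 1.78e-28), the smallest of the 3 rises.

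IFITM3, the member best known for restricting influenza virus, rose more steeply from a lower base. It had 141, 149 and 164 counts in wild-type cells, or 3.72, 5.53 and 4.10 CPM, and 5565, 7015 and 6362 counts in knockout cells, or 172, 172 and 156 CPM. Every knockout library was far above every wild-type library, and the third knockout library was the lowest of its group for both IFITM3 and IFITM1. The rise was 5.26 on the log2 scale (SE 0.0820, edgeR adjusted p 2.07e-32).

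IFITM10, which lies outside the cluster of the other genes, moved the other way and at a low level. Its counts were 72, 48 and 72 in the wild-type libraries and 40, 35 and 23 in the knockout libraries, or 1.90, 1.78 and 1.80 against 1.24, 0.858 and 0.565 CPM. The wild-type libraries were alike, the knockout libraries spread widely, and the highest knockout library stayed below the lowest wild-type library. IFITM10 fell by 1.06 on the log2 scale (SE 0.318, edgeR adjusted p 0.0054), which ranked 840 from the lowest of 18505. The call did not hold in a test against a minimum fold of 1.5 (edgeR adjusted p 0.133).

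**Figure D1:**
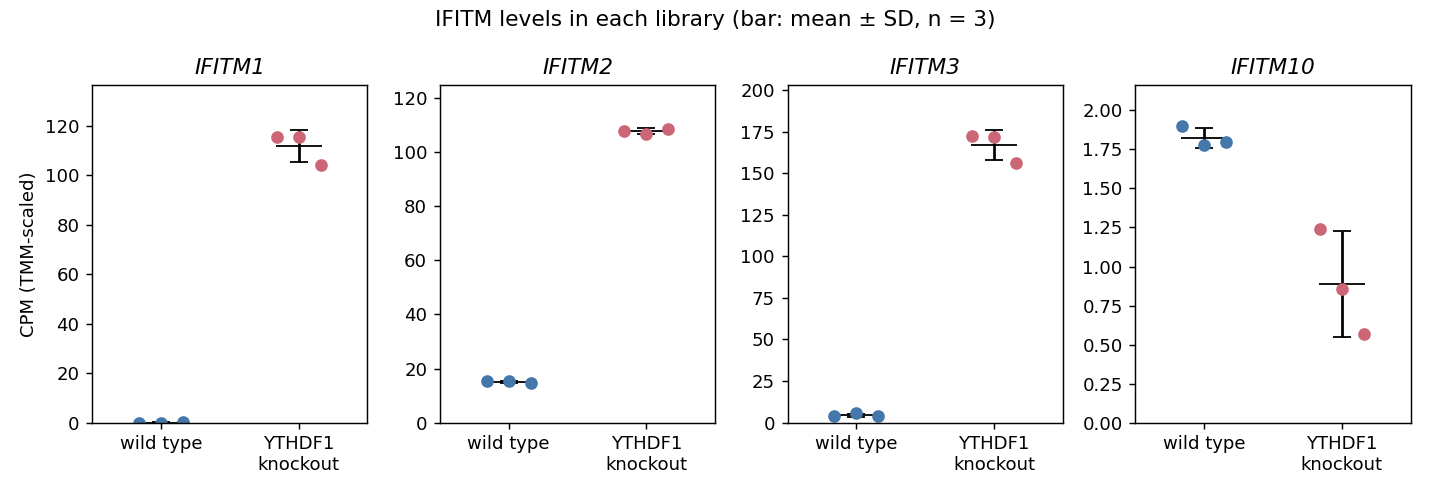
Levels of the 4 IFITM genes in CPM (vertical axis, linear and on a separate scale for each gene) in 3 wild-type and 3 YTHDF1 knockout A549 libraries, with 1 point per library and bars for mean ± SD. IFITM1, IFITM2 and IFITM3 reach 104 to 172 CPM in the knockout libraries, while IFITM10 stays under 2 CPM throughout and is lower in the knockout libraries.

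Comparing genes with each other needs a level per length, so TPM (counts divided by gene length and scaled to a fixed total per library) was computed with the exonic length of each gene. In wild-type cells the order was IFITM2 at 36.4 ± 0.952 TPM, IFITM3 at 12.2 ± 2.52, IFITM10 at 1.41 ± 0.0578 and IFITM1 at 0.0857 TPM, with no overlap between neighbours. In knockout cells it was IFITM3 at 507 ± 23.3 TPM, IFITM1 at 423 ± 20.7, IFITM2 at 286 ± 4.93 and IFITM10 at 0.757 ± 0.281 TPM, again with no overlap between neighbours. With this length IFITM1 thus went from last to second place. With the longest transcript as length the order was kept, but in knockout cells IFITM1 at 402 ± 19.2 TPM and IFITM2 at 372 ± 6.81 TPM nearly met, at 380.0 and 379.5 TPM in replicate 3. Exonic bases not shared on the same strand numbered 729 for IFITM1, 1192 for IFITM2 and 1348 for IFITM3. Lengths limited to these were not tried, so the order in knockout cells holds only for the lengths used.

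The makeup of the IFITM1, IFITM2 and IFITM3 pool changed with its size. Per length, IFITM2 made up 70.6% to 78.5% of the pool in wild-type libraries and 22.8% to 24.9% in knockout libraries. IFITM3 went from 21.5% to 29.4% of the pool to 40.97% to 42.03%, and IFITM1 from 0% to 0.546% to 34.1% to 35.2%. A pool held mainly by 1 gene became one shared by 3, and every knockout library showed nearly the same shares. Like the order above, these shares depend on the length used.

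**Figure D2:**
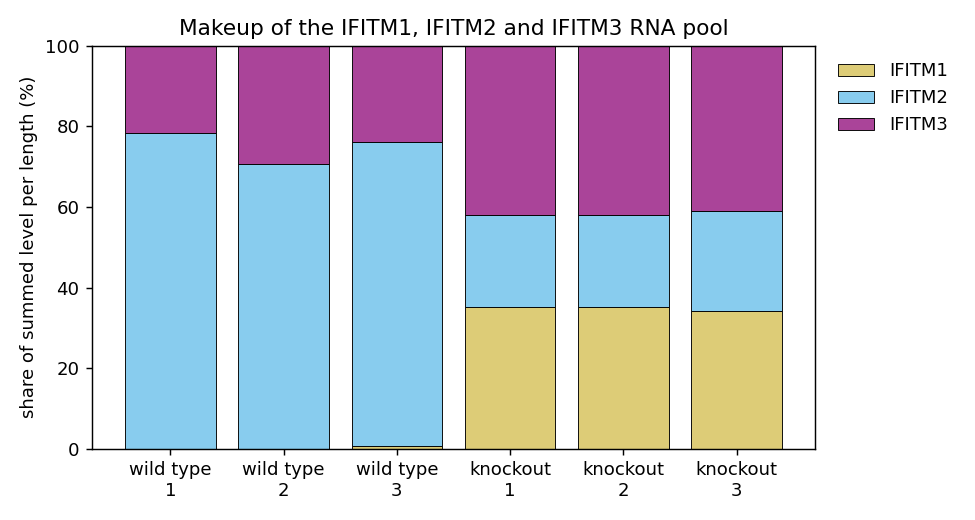
Share (%) of the summed level per length taken by IFITM1, IFITM2 and IFITM3, with 1 stacked bar per library. With the exonic length of each gene, IFITM2 fills 70.6% to 78.5% of each wild-type bar. Each knockout bar is divided among the 3 genes with IFITM3 the largest share, at 40.97% to 42.03%.

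The unequal change of IFITM3 and IFITM2 could be read within each library, free of scaling between libraries. The ratio of IFITM3 to IFITM2 counts was 0.239, 0.363 and 0.277 in the wild-type libraries and 1.60, 1.61 and 1.44 in the knockout libraries. Each wild-type library had fewer IFITM3 than IFITM2 counts and each knockout library had more. The log2 ratio was higher by 2.42 in the knockout libraries, with an exact two-sided permutation p of 0.1, the smallest that 3 against 3 libraries allow.

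The 3 genes that rose are neighbours and close copies of each other, so reads can be shared between them. In GENCODE 29 on GRCh38, IFITM2 spans chr11:307631-315272 on the plus strand, IFITM1 spans chr11:313506-315272 on the plus strand, and IFITM3 spans chr11:319669-327537 on the minus strand. An annotated IFITM2 transcript runs through the IFITM1 gene, so 351 of the 1080 exonic bases of IFITM1 (32.5%) are also exonic for IFITM2 on the same strand. IFITM3 shares 287 exonic bases (21.3%) with AC136475.5 on the opposite strand, a transcript with 2 to 19 counts per library. IFITM10 lies apart at chr11:1732410-1750591 on the minus strand.

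The coding sequences show how alike the copies are. IFITM2 and IFITM3 have the same base at 93.9% of 396 aligned coding positions, and IFITM1 and IFITM3 at 89.9%, while IFITM10 has the same base as the others at only 64.2% to 66.2%. The first 120 coding bases of IFITM3 and the matching 117 of IFITM2, from the GENCODE 29 transcripts, are printed because the 2 genes differ most visibly there. Capitals mark the 10 bases at which IFITM2 differs, and IFITM2 also lacks 3 bases.
IFITM3: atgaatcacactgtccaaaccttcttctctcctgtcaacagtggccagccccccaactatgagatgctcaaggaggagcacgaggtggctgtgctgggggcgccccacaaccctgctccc
IFITM2: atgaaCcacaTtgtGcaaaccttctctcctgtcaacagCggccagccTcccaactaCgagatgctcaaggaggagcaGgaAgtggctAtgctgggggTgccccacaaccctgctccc

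Further along, IFITM3 and IFITM1 hold an identical run of 141 bases, and IFITM2 differs from it at 3 bases, again in capitals. A read that falls wholly inside this run cannot be told apart between IFITM3 and IFITM1 by its sequence.
IFITM3, coding bases 217 to 357: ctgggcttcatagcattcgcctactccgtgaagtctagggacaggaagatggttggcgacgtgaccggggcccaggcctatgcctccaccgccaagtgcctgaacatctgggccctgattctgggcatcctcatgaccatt
IFITM1, coding bases 154 to 294: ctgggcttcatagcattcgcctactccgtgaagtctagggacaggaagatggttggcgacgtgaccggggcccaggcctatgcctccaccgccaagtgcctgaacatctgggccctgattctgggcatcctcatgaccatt
IFITM2, coding bases 214 to 354: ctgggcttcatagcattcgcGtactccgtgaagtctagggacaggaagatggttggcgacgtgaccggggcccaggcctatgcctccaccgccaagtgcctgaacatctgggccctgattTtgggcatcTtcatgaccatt

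Over whole transcripts, the shared part shrinks with read length. Of all 50-base words in IFITM2 transcripts, 12.9% also occur in IFITM3 and 21.6% in IFITM1. Of 100-base words, 1.4% of those of IFITM2 occur in IFITM3, and none of 150 bases do. IFITM2 and IFITM1, which share exons, still have 15.4% of the 150-base words of IFITM2 in common. IFITM10 shares no 50-base word with the other 3 genes. Read length and the treatment of reads with several matches are not stated by the sources used here, and the division of reads between IFITM1, IFITM2 and IFITM3 is uncertain.

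The part of read sharing in the changes was not tested, and some values are given here beside it. In wild-type cells IFITM1 had 3 counts beside 1592 of IFITM2 and 454 of IFITM3. This does not show how reads were divided in knockout cells. In knockout cells, the rise of IFITM2 by 92.5 CPM equalled 55.5% of the IFITM3 level and 33.2% of the IFITM1 and IFITM3 levels together. The sum of the 3 genes does not depend on the division among them if no shared read was dropped or counted repeatedly. The sources used here do not state this. The sum was 19.2, 20.7 and 19.0 CPM in the wild-type and 395, 394 and 369 CPM in the knockout libraries. It rose by 4.30 on the log2 scale (SE 0.0539, edgeR adjusted p 3.57e-35). Of the summed difference of 366 CPM, IFITM3 held 44.3%, IFITM1 30.5% and IFITM2 25.3%.

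The 13 other genes named IFITM in the table stayed near 0. Of these, 8 had at least 1 count, with at most 13 counts in a library and totals of 56 counts over the wild-type and 45 over the knockout libraries. IFITM5, the bone-restricted member beside IFITM2, had 0, 0 and 0 counts in the wild-type and 0, 4 and 0 in the knockout libraries. The pseudogene IFITM3P1 had 2, 6 and 4 counts against 1, 9 and 6. IFITM3P6 was the only one tested, with a log2 fold change of -0.74 (edgeR adjusted p 0.307). IFITM3P3, IFITM3P4, IFITM3P5, IFITM3P8 and IFITM9P had at most 6 counts in a library.

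IFITM10 overlaps another gene too. AC068580.4, on the same strand, shares 1062 exonic bases with it (22.2% of IFITM10). AC068580.4 had 37, 29 and 46 counts in the wild-type and 36, 29 and 40 in the knockout libraries, with overlapping groups and a log2 fold change of -0.20 (SE 0.348, edgeR adjusted p 0.671).

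Promoter sequence is shown to let a reader see the interferon-stimulated response element (ISRE), the DNA element through which interferon is known to act on IFITM genes. Its part in these changes was not tested. The RefSeq promoter table (GRCh38.p14) matched 2 of the 4 members. Each window below runs from 80 bases before to 10 bases after the RefSeq start on the gene's own strand. Capitals mark GAAANNGAAA, taken here as the ISRE core and searched on both strands (TTTCNNTTTC on the other).
IFITM1, chr11:313960-314049, plus strand: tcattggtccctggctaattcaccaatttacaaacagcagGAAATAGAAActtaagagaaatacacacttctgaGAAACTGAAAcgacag
IFITM3, chr11:320851-320940, minus strand: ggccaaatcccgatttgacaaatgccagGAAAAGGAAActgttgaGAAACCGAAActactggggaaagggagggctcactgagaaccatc

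Each promoter held 2 copies of the core. In IFITM1 they begin 40 and 6 bases before the start, the latter running 4 bases past it, and in IFITM3 they begin 52 and 35 bases before it. The core occurs in 1255 of 35116 promoters in the table (3.574%), over windows of 250 bases before to 50 after the start. TTCNNNGAA, the core of the gamma-activated site, occurs once in the longer window of IFITM1, overlapping the ISRE core nearest the start, and not in that of IFITM3. It occurs in 7.657% of promoters. IFITM5, which lies in the same cluster, has no ISRE core in its longer window. Over the 250 bases before the start, IFITM1 and IFITM3 promoters have the same base at 68.9% of 238 aligned positions. A match describes the letters only and does not show that a factor was bound.

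The 16 genes listed for interferon signalling upstream of the IFITM genes were mostly higher: 12 rose, 1 fell and 3 did not pass, the median log2 fold change being 1.39. Over all genes tested, 27.2% were higher and the median was 0.0011. STAT2, a transcription factor activated by type I and III interferons, rose by 3.55 on the log2 scale, from 52.8, 52.5 and 50.9 to 597, 629 and 608 CPM. IRF1, an interferon-induced transcription factor, rose by 2.83 from 13.5, 14.5 and 16.8 to 107, 107 and 105 CPM. USP18, a feedback inhibitor at the interferon receptor, rose by 4.48. For each of these, the knockout libraries stood clear of the wild-type libraries.

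Of the 6 receptor chains in the list, 4 rose and 2 did not pass, while 27.2% of all genes tested were higher and 26.3% lower. IFNGR1 rose by 1.29 on the log2 scale, IFNLR1 by 0.54, IFNGR2 by 0.44 and IFNAR1 by 0.17. IFNAR2 and IL10RB did not pass, with log2 fold changes of 0.27 and -0.08. Of IL10RB exonic bases, 38.1% are shared with IFNAR2-IL10RB on the same strand, and the exon overlap of IFNAR2 was not looked up. Of the kinases bound to these receptors, JAK2 rose by 1.83, JAK1 fell by 0.18 and TYK2 did not pass, at -0.0039. IRF9, the DNA-binding partner of STAT2, had 5, 5 and 3 counts in the wild-type and 18, 20 and 18 in the knockout libraries, a rise of 1.94 (edgeR adjusted p 0.0072). Without wild-type replicate 3 its adjusted p was 0.0553, and 48.4% of its exonic bases are shared with AL136295.5 on the same strand, so its level is uncertain.

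Among 12 other interferon-linked genes whose products act on membranes or virus entry, 9 rose, 1 fell and 2 did not pass, the median log2 fold change being 2.23, beside the same 27.2% higher over all genes. RSAD2 (viperin), a radical-SAM enzyme on the endoplasmic reticulum and lipid droplets, went from 0.106, 0.223 and 0.300 CPM to 489, 578 and 544 CPM, a rise of 11.30 on the log2 scale. BST2 (tetherin), which holds budding virus at the cell surface, went from 0.158, 0.0742 and 0.150 CPM to 35.5, 33.8 and 34.2 CPM. NCOA7, an interferon-inducible form of which acts on endosome acidity, rose by 2.87, and LY6E, a restriction factor of coronavirus entry, by 2.15. The ubiquitin ligase MARCHF1 fell by 0.36.

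Genes known to modify or bind IFITM proteins were called about as often as all genes tested: of 10, 2 rose, 3 fell and 5 did not pass, with a median of -0.06, against 27.2% higher and 26.3% lower over all genes. CD81, a tetraspanin that associates with IFITM1, rose by 0.45 on the log2 scale. VCP, an ATPase that extracts ubiquitylated proteins, fell by 0.32. SETD7, which methylates IFITM3 on lysine, fell by 0.21, and KDM1A, which removes that methylation, fell by 0.41. NEDD4, the ubiquitin ligase of IFITM3, and ZDHHC20, which palmitoylates it, did not pass, with log2 fold changes of -0.10 and -0.07.

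The AP-2 adaptor and clathrin carry IFITM3 and IFITM2 in from the cell surface. Of 8 subunit genes, 0 rose, 7 fell and 1 did not pass (CLTA), the median log2 fold change being -0.30, while 26.3% of all genes tested were lower and their median was 0.0011. The largest change was in AP2B1, a large adaptor subunit, with 469, 452 and 454 CPM in the wild-type and 251, 280 and 268 CPM in the knockout libraries, a fall of 0.78 with no overlap. CLTC, the clathrin heavy chain, fell by 0.47, AP2A2 by 0.32 and AP2M1, the subunit that reads tyrosine-based signals, by 0.30.

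The other CD225 family genes had far smaller changes than IFITM1, IFITM2 and IFITM3. Of 10 listed, 4 were tested, of which 1 rose, 2 fell and 1 did not pass, with a median of -0.30. The shares over all genes tested were 27.2% higher and 26.3% lower. TRARG1 and TMEM265 had 0 counts in all libraries. PRRT2, a regulator of neurotransmitter release, rose by 0.97, with 37.0% of its exonic bases shared with genes on the same strand. SYNDIG1, a synaptic protein, fell by 1.11 on the log2 scale. TMEM91 fell by 0.35 and had an adjusted p of 0.025 in edgeR's test, which was 0.0669 to 0.101 without wild-type replicate 1, wild-type replicate 2 or knockout replicate 1. PRRT1B had a log2 fold change of -0.25 and did not pass.

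**Figure D3:**
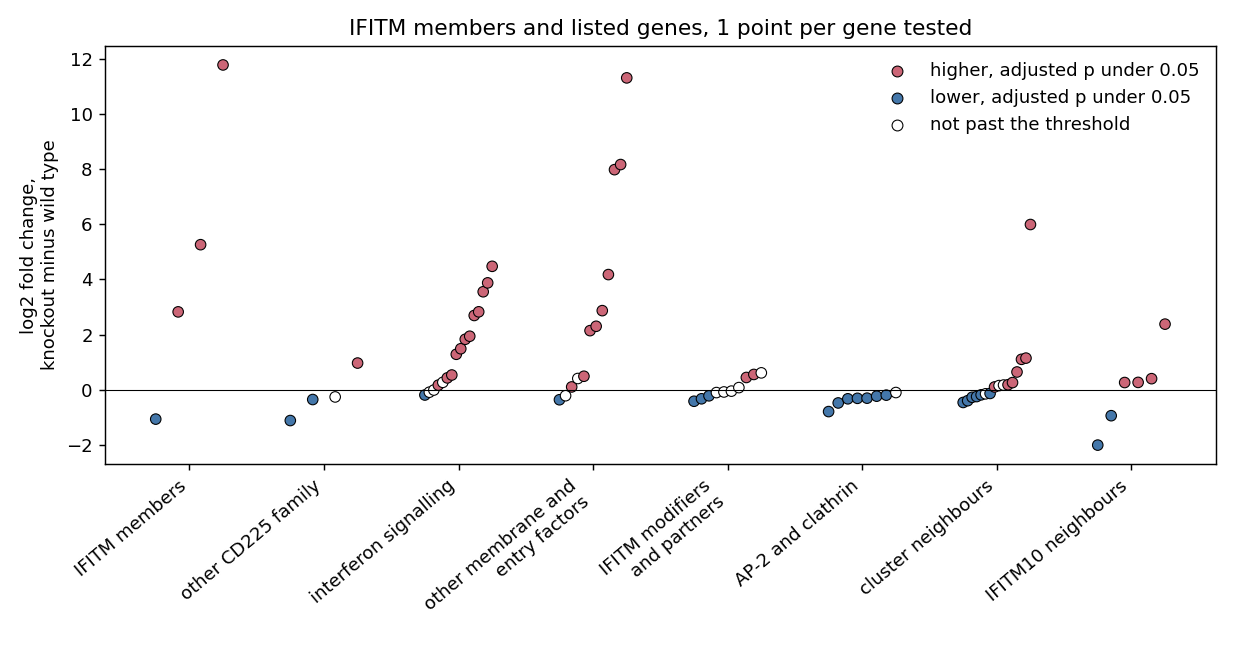
Log2 fold change, knockout minus wild type (vertical axis), with 1 point per gene tested in the IFITM group and 7 lists of related genes, colored by call. The interferon signalling and membrane factor lists lean upward, the AP-2 and clathrin list lies between -0.78 and -0.09, and the value of 11.77 for IFITM1 is a fitted one that rests on 3 wild-type counts.

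Of the genes around the IFITM1, IFITM2 and IFITM3 cluster, those tested within 200 kb had smaller changes than the 3 members. Within 200 kb of the IFITM1 start, 34 genes other than the 3 members are in the table and 15 were tested. Of these 4 rose and 6 fell, the median log2 fold change being -0.13 and the range -0.45 to 1.38. Over all genes tested, 27.2% were higher and 26.3% lower. PGGHG, an enzyme that trims hydroxylysine-linked sugars, lies on the far side of IFITM5 and rose by 1.15, from 24.3, 27.3 and 23.7 to 56.9, 55.3 and 54.7 CPM. B4GALNT4, a glycosyltransferase gene on the other side, fell by 0.39. The highest value belonged to AC136475.2, an antisense transcript inside IFITM2 chosen here after its values were seen, with 37, 40 and 31 counts against 84, 124 and 105. It lies opposite IFITM2 without sharing exonic bases, and the sources used here do not state the strand setting of the counting.

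**Figure D4:**
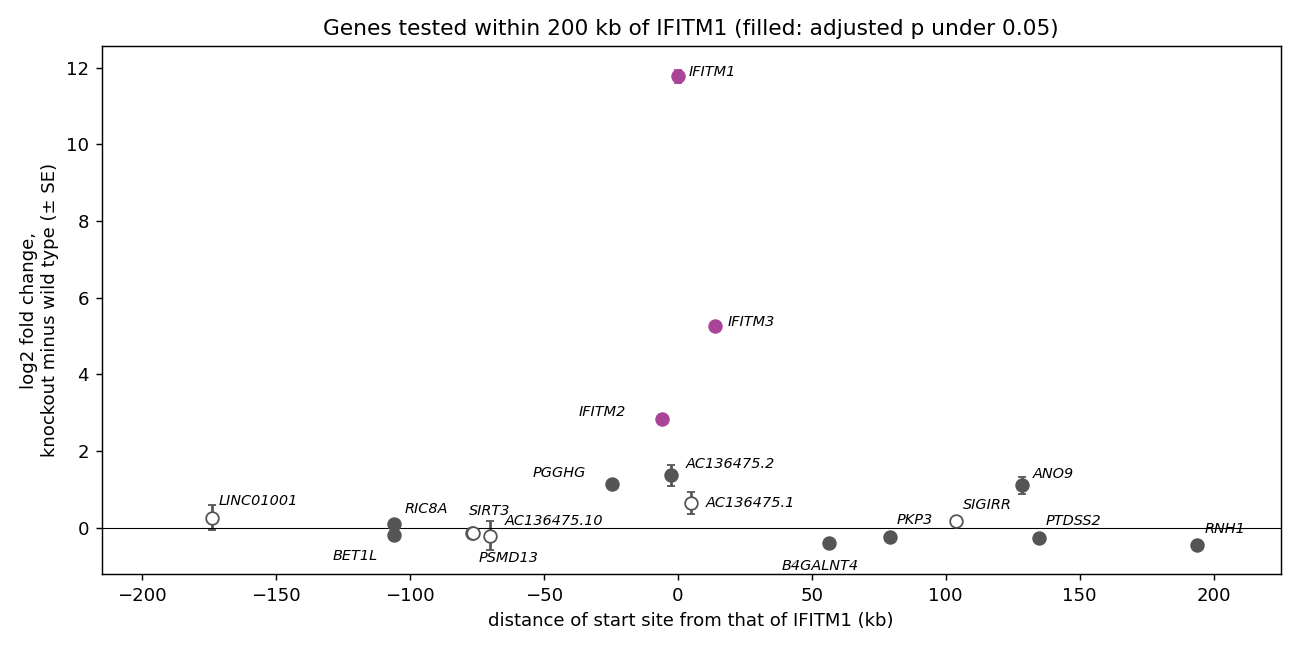
Log2 fold change ± SE (vertical axis) of the genes tested within 200 kb of IFITM1 against the distance of their start from that of IFITM1 (kb), with filled points for adjusted p under 0.05. IFITM1, IFITM2 and IFITM3 stand at 11.77 (resting on 3 wild-type counts), 2.83 and 5.26, while the other genes lie between -0.45 and 1.38, with the points of SIRT3 and PSMD13 on top of each other.

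Of a wider list of 20 neighbours in the table, 16 were tested, of which 7 rose, 6 fell and 3 did not pass, with a median of 0.13. It includes IRF7, a transcription factor of the interferon response farther along the chromosome. IRF7 rose by 5.99 on the log2 scale, from 3.53, 2.08 and 3.70 to 213, 208 and 191 CPM. That was a larger rise than those of IFITM2 and IFITM3. RNH1, the ribonuclease inhibitor, fell by 0.45. Around IFITM10, 6 of 9 listed neighbours were tested, of which 4 rose and 2 fell. CTSD (cathepsin D), the nearest of them, rose by 0.27 on the log2 scale, with 41.7% of its exonic bases shared on the same strand. MOB2 rose by 0.41, BRSK2 by 0.27, and DUSP8 by 2.38, from 4, 4 and 13 to 38, 32 and 48 counts. MRPL23 fell by 0.93, and LSP1 fell from 2.85, 1.71 and 3.07 to 0.588, 0.662 and 0.663 CPM. Within 200 kb of the IFITM10 start, 8 other genes were tested, of which 3 rose and 2 fell, with a median of -0.03. These counts of neighbours stand beside 27.2% higher and 26.3% lower over all genes tested. Genes called in both directions are thus not particular to the surroundings of IFITM10.

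The genes most like each IFITM gene were found as those nearest by Euclidean distance in log2(CPM + 1) over the 6 libraries, each centred on its wild-type mean. For IFITM1 they were ISG15, a ubiquitin-like modifier (distance 0.342), TRIM22 (0.381) and IFIH1 (0.475), the RNA sensor MDA5. For IFITM2 they were TRIM38 (0.136), the complement protease C1R (0.138) and the immunoproteasome subunit PSMB8 (0.184). For IFITM3 they were HERC5, the ligase for ISG15 (0.153), HLA-F (0.288) and HELZ2 (0.417). For IFITM10 they were GPX2 (0.118), OLFML3 (0.128) and GYG2 (0.130). TRIM38 went from 16.7 ± 0.673 to 119 ± 1.99 CPM and HERC5 from 5.51 ± 0.713 to 206 ± 9.11 CPM, close to the course of IFITM2 and IFITM3. With 6 libraries in 2 groups, these distances describe mainly the size of the difference between the groups on the log2(CPM + 1) scale. The added 1 CPM shrinks differences that involve levels near or under 1 CPM. IFITM1, at a mean of 0.025 CPM in wild-type cells, had a fitted log2 fold change of 11.77. ISG15, TRIM22 and IFIH1 had smaller ones, at 6.97, 7.29 and 6.84, from wild-type means of 5.57, 2.92 and 4.39 CPM. GPX2, OLFML3 and GYG2 fell less than IFITM10, with log2 fold changes of -0.68, -0.65 and -0.56.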

How the data were processed

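Total RNA of A549 cells was made into stranded RNA-seq libraries, per the labels' protocols. The authors deposited whole-number counts per Ensembl gene for 3 wild-type and 3 YTHDF1 knockout libraries, grouped here by their titles. Per the submitters' processing notes, the tools were featureCounts 2.0.1, edgeR 3.32.1, Trim Galore 0.6.6 and STAR 2.7.0d, with the build GRCh38. The gene annotation, strand setting, read length and handling of reads with several matches are not stated by the sources used here.

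Symbols came from a symbol table for 42000 identifiers and from GENCODE 29 for 16605 more, with 2012 left unnamed. GENCODE 29 gave gene models for 58542. It may differ from the annotation used for counting.

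Genes were filtered with filterByExpr, leaving 18505, and scaled with TMM. The test was two-sided, by edgeR 4.0.16 (R 4.3.3), quasi-likelihood with genotype as the only term and Benjamini-Hochberg adjustment over all genes tested, at 0.05. All CPM carry TMM factors. The SE comes from the fold change and F statistic. The common biological coefficient of variation was 0.0617. TPM used exonic lengths from GENCODE 29. Coding sequences were aligned with Biopython 1.88, and the permutation test used SciPy 1.17.1. The test was checked on simulated counts. Libraries of a group differed beyond sampling noise (chi-square per degree of freedom 4.42 to 6.60), so all 6 were kept.

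The members and gene lists were chosen with earlier results of these data known. Named genes are the members, YTHDF1, other IFITM-named genes with a count, and set genes of the interferon list and the neighbours. They also include up to 4 genes with the smallest adjusted p in each list other than the members and markers. Genes overlapping a member and the 3 nearest profiles were named too. IFNGR1, IFNGR2, IFNLR1, IFNAR1, JAK2, IFNAR2, IL10RB, TYK2, JAK1, MARCHF1, NEDD4, ZDHHC20, CLTA, TRARG1, TMEM265, DUSP8 and BRSK2 were named in addition after their values were seen. 1 gene that the rule takes is not reported here. Alternatives were DESeq2 1.42.0, limma-voom (limma 3.58.1), other scalings and filters, a replicate block, stricter thresholds, a minimum fold, another gene length and leaving out each library.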

Additional observations from a re-analysis of the deposited data

How the results depend on the processing

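IFITM1, IFITM2, IFITM3 and their sum kept direction and call under all 16 alternatives run, with log2 fold changes from 11.18 to 14.96, 2.77 to 2.85, 5.15 to 5.41 and 4.24 to 4.34. The fitted values of IFITM1 depend on the prior count. IFITM10 ranged from -1.35 to -0.81 and kept its call in 15 of 16, with adjusted p from 0.0018 to 0.133 over the edgeR, DESeq2 and limma-voom fits. The highest was in the edgeR test against a minimum fold of 1.5, with the log2 fold change at -1.06. That test left 1573 genes higher and 1012 lower, 0 members lower, and 20 listed genes higher and 3 lower, since it asks for a larger change by construction. PRRT1B, which had not passed, ranged from -0.63 without knockout replicate 3 to 0.046 without wild-type replicate 2, and was 0.036 without knockout replicate 1. The cause was not tested.

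Same-numbered libraries did not deviate together (correlations of -0.03, -0.02 and 0.02 over genes), so the numbers give no pairing. With the replicate block, log2 fold changes were IFITM10 -1.09 and IFITM1 11.76, and 4937 genes were higher and 4766 lower. Upper-quartile scaling moved the median of all genes by -0.06. Depth limits IFITM1 in wild-type cells, IFITM10 and IRF9, which rest on few counts.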
